A study of Mus musculus with 11 samples.

Results

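The genes described here take glucose into the heart muscle cell, carry it through glycolysis to lactate or to the mitochondrial pyruvate dehydrogenase complex, and store it as glycogen. They were chosen as the rows of the expression table whose RefSeq accession belongs to any of 33 listed gene symbols. A row was found for 30 of the 33 symbols, among 21878 rows in all. Pfkfb1, Aldoa and Eno1 had no matching accession and are not analysed here. Of the 30, 29 had a mean of at least 1 FPKM (read fragments for each kilobase of transcript, relative to the size of the library) over all samples and were tested among 10891 rows. The remaining gene, the brain aldolase Aldoc, lay between 0 and 1.002 FPKM in the 11 samples.

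Heart RNA came from wild-type female mice in 2 groups. The 5 PCOS samples came from mice treated before birth with anti-Müllerian hormone (AMH), a model of polycystic ovary syndrome, and the 6 control samples from mice treated before birth with phosphate-buffered saline. The comparison asks which heart transcripts differ between the groups. The labels name no age, litter, batch or day, and do not say that samples of a group came from separate animals, so p-values measure only the spread between these samples, which may be technical. In bulk tissue, fewer cells of a type and less RNA per cell cannot be told apart.

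The adult heart draws most of its energy from fatty acids and the remainder from glucose and lactate. Glucose crosses the membrane through GLUT4, which insulin and contraction bring to the surface, and through GLUT1, which is there at all times. Hexokinase traps it as glucose 6-phosphate, phosphofructokinase commits it to glycolysis, and pyruvate dehydrogenase, held in check by the pyruvate dehydrogenase kinases, decides whether pyruvate is oxidised. Glycogen synthase and the branching enzyme build glycogen, and phosphorylase takes it apart.

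Reads recovered from the FPKM steps summed to between 11866291 and 14346620 per library, and a tested gene of the pathway held between 262 and 36524 reads per library. Cardiac markers were abundant: the summed level of 8 cardiomyocyte markers lay between 37949 and 45544 FPKM, while 6 markers of fast skeletal muscle summed to between 0.639 and 1.81 FPKM, with Myh4 at 0 in all samples. Control replicate 6 stood apart. Its 11 hepatocyte markers summed to 1857 FPKM, against 4.84 to 13.2 in the other controls and 4.61 to 6.47 in PCOS, and the main results are therefore given with and without it. The 7 macrophage markers with a row summed to 131 to 252 FPKM in controls and 279 to 389 in PCOS, with 6 of the 7 differences above 0 and 1 called, which was Cd68, and the groups did not overlap. The 6 erythroid markers summed to 530.3 to 1528 FPKM in controls and 849 to 2229 in PCOS. Sums of markers of smooth muscle, fibroblasts, endothelium, adipocytes and atrial myocytes overlapped between the groups. The part of any of these in the results below was not tested.

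None of the 29 tested genes passed the test in either direction, and none did so by limma voom on the recovered reads. Across all tested rows, 15 rows were higher in PCOS at an adjusted p under 0.05 (0.138%) and 0 were lower (0%), by limma on log2(FPKM + 1) with Benjamini-Hochberg adjustment, which is the test behind each difference and adjusted p below. Adjusted p-values of the pathway genes lay between 0.738 and 0.964. At an unadjusted p under 0.05, 1 of the 29 was higher (Pgam2) and 0 were lower, against 3.51% and 3.17% of all tested rows. All differences are PCOS minus control. They ran from -0.20 (Gbe1) to 0.24 (Pgam2), with 10 above 0 and 19 below 0 and a median of -0.03. The median over all tested rows was 0.0017, with 49.4% of rows below 0. No gene had groups that did not overlap, while the PCOS samples lay entirely above the controls in 0.45% of all rows and entirely below in 0.248%.

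The intervals are each for a single gene, and they take no account of the number of genes or of the length trend given below. For 20 of the 29 genes the 95% confidence interval of the difference lay within a change of 1.25-fold in either direction (0.32 on the log2 scale), and for all 29 it lay within 1.5-fold (0.58), as it did for 95.1% of all tested rows. The lowest bound was -0.48 and the highest 0.45. Without control replicate 6 they were -0.53 and 0.48, with all 29 intervals again within 1.5-fold.

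Without control replicate 6 the controls were closer together for genes in which that library was low, as for Pkm, whose coefficient of variation was 4.50% with it and 0.799% without. Of the 29 genes, 0 were called, with a smallest adjusted p of 0.093 for Gys1, while 29 rows of the whole table were higher (0.266%) and 3 lower (0.0275%). At an unadjusted p under 0.05, 2 genes were then higher (Pgam2 and Ldha) and 6 lower (Hk2, Pdha1, Pdk2, Pygm, Pygb and Gys1), against 9.62% and 9.75% of all rows. Gys1 and Pdk2 were below every remaining control in every PCOS sample, and none was above, against 1.85% and 1.7% of all rows. The median difference was -0.06. Control replicate 6 was the lowest of the 11 samples for 13 of the 29 genes (44.8%) and the highest for 0, while it was the lowest for 20.7% of all rows and the highest for 18.7%.

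**Figure D1:**
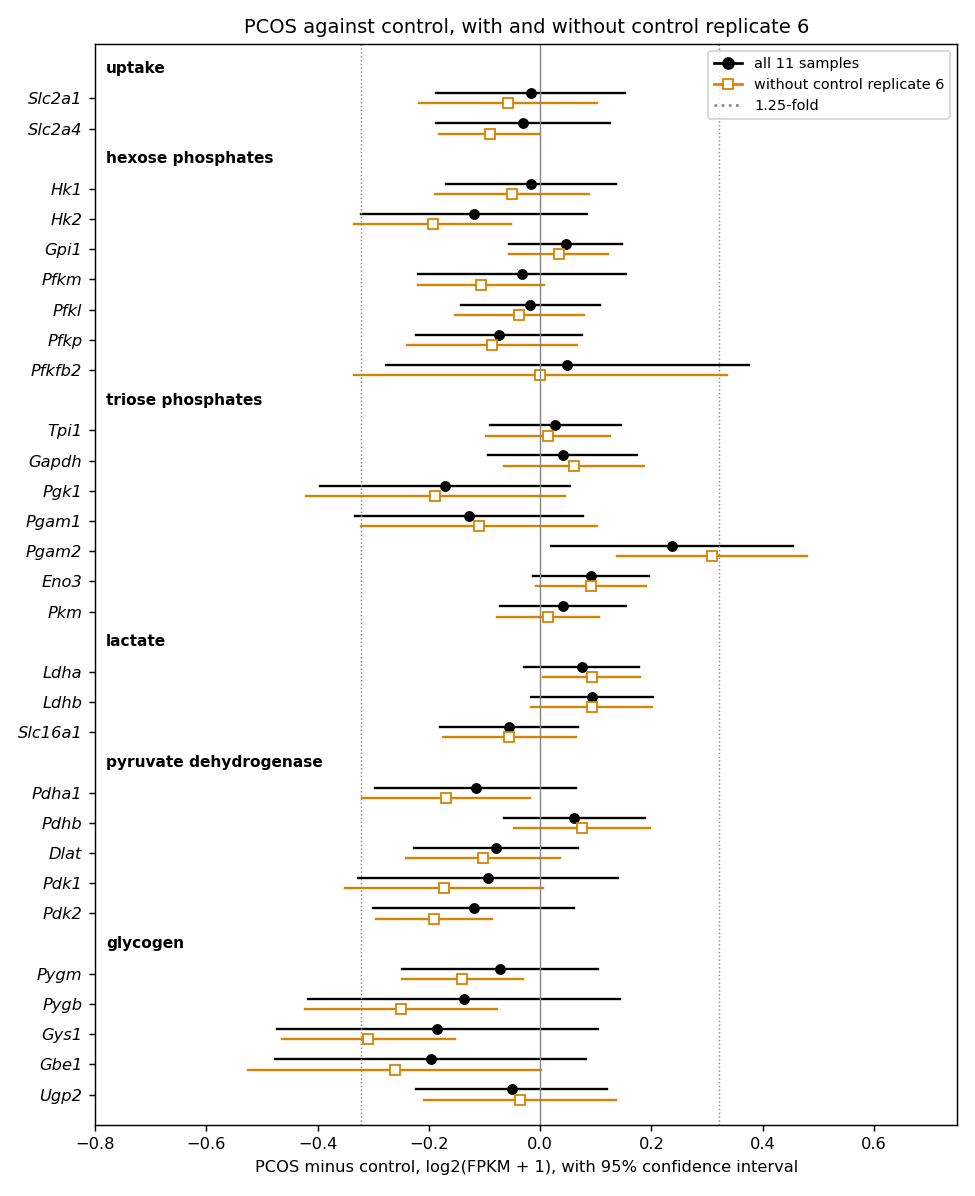
Difference between the groups (PCOS minus control) in log2(FPKM + 1) with its 95% confidence interval for each tested gene, from all 11 samples (black circles) and without control replicate 6 (orange squares). Dotted lines mark a change of 1.25-fold, which holds 20 of the 29 intervals from all 11 samples.

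The order of levels was nearly the same in both groups. Since FPKM is per length, levels can be set side by side between genes. Ldhb, the heart subunit of lactate dehydrogenase, had the highest level at 1678 ± 46.6 FPKM over controls (SD, n = 6) against 1792 ± 96.7 FPKM over PCOS samples (SD, n = 5). It was followed by Pgam2 and Eno3, the muscle forms of phosphoglycerate mutase and enolase, and then by Pdhb and Tpi1. The lowest of the tested genes was Slc2a1, at 8.97 ± 0.956 FPKM over controls (SD, n = 6) against 8.84 ± 0.775 FPKM over PCOS samples (SD, n = 5). The first 10 genes held the same places in both groups. The neighbours Pygb and Gpi1, Pdk1 and Hk1, Gys1 and Pfkl, and Pfkp and Pfkfb2 stood in the opposite order in the other group, and the levels of each such pair lay within the spread of the samples in at least 1 group. Gapdh, much used as a reference gene, came only 18th of 30 at 87.4 ± 5.19 FPKM over controls (SD, n = 6) against 89.9 ± 5.91 FPKM over PCOS samples (SD, n = 5). Gapdh, Pgk1, Pgam1, Ldha, Tpi1 and Pkm have processed copies elsewhere in the genome, and how reads that map to several places were counted is not given in the sources used here, so the levels of these 6 genes are uncertain.

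Within a group the most even tested gene was Ldha in PCOS, with a coefficient of variation of 1.81%. The least even were Gys1 in controls, with 21.4%, and Pfkfb2 in PCOS, with 23.3%. Pfkfb2, the heart form of the enzyme that makes the phosphofructokinase activator fructose 2,6-bisphosphate, was measured at 18.6, 11.8, 12.0, 15.7 and 13.7 FPKM in control replicates 1 to 5, 11.4 in control replicate 6 and 18.3, 11.5, 10.7, 17.2 and 14.6 in PCOS replicates 1 to 5. Samples near 11 to 12 and samples above 17 occurred in both groups, and the difference was 0.05 (SE 0.15, adjusted p = 0.945). The coefficient of Gys1 was 11.5% among the first 5 controls and 2.30% among PCOS samples.

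Both glucose transporters had differences close to 0 with all 11 samples. Slc2a4, which encodes the insulin-responsive transporter GLUT4, read 188, 197, 189, 178 and 184 FPKM in control replicates 1 to 5, 145 in control replicate 6 and 177, 169, 174, 177 and 178 in PCOS replicates 1 to 5. Control replicate 6 lay below all 10 other samples, and the PCOS samples lay inside the range of the 6 controls. Of the PCOS samples, only replicate 5 reached the range of control replicates 1 to 5, and the others lay below it. The difference was -0.03 (SE 0.07, adjusted p = 0.922) with an interval of -0.19 to 0.13. Without control replicate 6 it was -0.09 (adjusted p = 0.261) with an interval of -0.18 to 0.0006. Slc2a1, which encodes the basal transporter GLUT1, read 8.28, 9.11, 8.81, 10.1 and 9.96 FPKM in control replicates 1 to 5, 7.60 in control replicate 6 and 9.11, 8.35, 8.45, 8.21 and 10.1 in PCOS replicates 1 to 5. The groups overlapped along nearly their whole length, and the difference was -0.02 (SE 0.08, adjusted p = 0.964) with an interval of -0.19 to 0.15. GLUT4 transcript exceeded GLUT1 transcript by 17.6 to 22.7 times in the 11 samples.

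Of the 7 genes that act on hexose phosphates, 2 had a difference above 0 and 5 below 0, with a median of -0.02. Only those of Hk2 and Pfkp were larger than their own standard error. Hk2, the insulin-regulated hexokinase of muscle, gave 77.3, 79.2, 66.1, 84.5 and 81.8 FPKM in control replicates 1 to 5, 56.7 in control replicate 6 and 65.9, 64.4, 67.7, 71.8 and 68.7 in PCOS replicates 1 to 5. Control replicate 6 was the lowest sample, and 4 of the other 5 controls lay above every PCOS sample. The difference was -0.12 (SE 0.09, adjusted p = 0.795), and -0.19 (adjusted p = 0.151) without control replicate 6. Pfkm, the muscle subunit of phosphofructokinase, gave 372, 386, 352, 366 and 371 FPKM in control replicates 1 to 5, 272 in control replicate 6 and 314, 329.7, 357, 370.0 and 346 in PCOS replicates 1 to 5. Again control replicate 6 was the lowest, with PCOS replicate 1 next to it, and the difference was -0.03 (SE 0.09, adjusted p = 0.933).

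The other hexose phosphate genes were close to equal. Hk1, the housekeeping hexokinase, was at 38.5 ± 2.96 FPKM over controls (SD, n = 6) against 38.1 ± 3.15 FPKM over PCOS samples (SD, n = 5), a difference of -0.02. Gpi1, the glucose phosphate isomerase, was at 256 ± 7.19 FPKM over controls (SD, n = 6) against 264 ± 8.36 FPKM over PCOS samples (SD, n = 5), a difference of 0.05. The liver and platelet subunits of phosphofructokinase were far below the muscle subunit. Pfkl was at 35.8 ± 1.75 FPKM over controls (SD, n = 6) against 35.3 ± 2.11 FPKM over PCOS samples (SD, n = 5), a difference of -0.02, and Pfkp was at 15.0 ± 1.16 FPKM over controls (SD, n = 6) against 14.2 ± 1.12 FPKM over PCOS samples (SD, n = 5), a difference of -0.07. Adjusted p-values of all 7 hexose phosphate genes were 0.795 or more.

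Among the 7 tested genes of triose phosphate handling, from triose phosphate isomerase to pyruvate kinase, 5 had a difference above 0 and 2 below 0, with a median of 0.04. The highest difference of the whole pathway was found here. Pgam2, the muscle phosphoglycerate mutase, was measured at 748, 752, 942, 774 and 779 FPKM in control replicates 1 to 5, 1071 in control replicate 6 and 1086, 982, 1043, 849 and 987 in PCOS replicates 1 to 5. Of the 6 controls, 4 lay below every PCOS sample, while control replicates 3 and 6 lay inside the PCOS range. The difference was 0.24 (SE 0.10, adjusted p = 0.738) with an interval of 0.02 to 0.45 and an unadjusted p of 0.034, the smallest of the 29. It was 0.31 (adjusted p = 0.106) without control replicate 6. Pgam2 also has the shortest transcript of the 29, 906 bases, and the median difference of short rows was above 0 across the table. With the length trend of each library removed, its difference was 0.14.

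Pgk1, the phosphoglycerate kinase of the X chromosome, which makes the first ATP of glycolysis, was measured at 202, 231, 202, 228 and 236 FPKM in control replicates 1 to 5, 204 in control replicate 6 and 145, 179, 222, 211 and 217 in PCOS replicates 1 to 5. PCOS replicates 1 and 2 were below all controls and the other 3 were inside the control range. The difference was -0.17 (SE 0.10, adjusted p = 0.753) and -0.19 (adjusted p = 0.353) without control replicate 6. Eno3, the muscle enolase, stood at 593, 646, 639, 623 and 663 FPKM in control replicates 1 to 5, 632 in control replicate 6 and 667, 677, 701, 647 and 679 in PCOS replicates 1 to 5. PCOS replicates 1, 2, 3 and 5 lay above all controls, and PCOS replicate 4 lay among them. The difference was 0.09 (SE 0.05, adjusted p = 0.741), and its interval of -0.01 to 0.20 held 0. Gapdh, which oxidises glyceraldehyde 3-phosphate, stood at 87.8, 87.8, 78.3, 90.9 and 86.1 FPKM in control replicates 1 to 5, 93.6 in control replicate 6 and 80.6, 89.1, 91.6, 91.5 and 96.8 in PCOS replicates 1 to 5. The ranges overlapped almost fully, and the difference was 0.04 (SE 0.06, adjusted p = 0.876).

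Tpi1, the triose phosphate isomerase, was at 568 ± 26.3 FPKM over controls (SD, n = 6) against 579 ± 31.4 FPKM over PCOS samples (SD, n = 5), a difference of 0.03. Pkm, the muscle pyruvate kinase that forms pyruvate, was at 512 ± 23.0 FPKM over controls (SD, n = 6) against 527 ± 20.4 FPKM over PCOS samples (SD, n = 5), a difference of 0.04. Pgam1, the mutase of brain and most other tissues, was at 20.9 ± 2.36 FPKM over controls (SD, n = 6) against 19.0 ± 2.23 FPKM over PCOS samples (SD, n = 5), a difference of -0.13 on the other side of 0 from Pgam2.

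Both lactate dehydrogenase subunits had a mean above that of controls, by amounts that did not pass the test. Ldhb read 1631, 1657, 1762, 1695 and 1652 FPKM in control replicates 1 to 5, 1671 in control replicate 6 and 1813, 1724, 1952, 1727 and 1743 in PCOS replicates 1 to 5. PCOS replicates 1 and 3 lay above all controls, and the other 3 lay below control replicate 3. The difference was 0.09 (SE 0.05, adjusted p = 0.742), and it turned to -0.04 under quantile normalization and to 0.02 with the length trend removed. Ldha, the subunit that favours the making of lactate, read 402, 429.8, 408, 403 and 417 FPKM in control replicates 1 to 5, 445 in control replicate 6 and 427, 445, 447, 442 and 435 in PCOS replicates 1 to 5. All 5 PCOS samples lay above controls 1, 3, 4 and 5, while controls 2 and 6 lay within their range. The difference was 0.07 (SE 0.05, adjusted p = 0.755) and 0.09 (adjusted p = 0.23) without control replicate 6. Slc16a1, which encodes the lactate and pyruvate carrier MCT1, was at 85.1 ± 3.51 FPKM over controls (SD, n = 6) against 81.9 ± 5.34 FPKM over PCOS samples (SD, n = 5), a difference of -0.06.

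For pyruvate dehydrogenase and its kinases, 1 difference was above 0 and 4 were below 0, with a median of -0.09. Pdha1, the catalytic subunit on the X chromosome, was at 474, 534, 459, 542 and 533 FPKM in control replicates 1 to 5, 408 in control replicate 6 and 409, 425, 495, 489 and 444 in PCOS replicates 1 to 5. Controls 2, 4 and 5 lay above every PCOS sample, and control replicate 6 lay below every one. The difference was -0.12 (SE 0.08, adjusted p = 0.777) and -0.17 (adjusted p = 0.213) without control replicate 6. Pdk2, a widely expressed kinase that inhibits the complex, was at 230.5, 236, 217, 250.4 and 224 FPKM in control replicates 1 to 5, 171 in control replicate 6 and 205, 197, 204, 211 and 197 in PCOS replicates 1 to 5. The first 5 controls lay above all PCOS samples and control replicate 6 lay below all of them. The difference was -0.12 (SE 0.08, adjusted p = 0.774) and -0.19 (adjusted p = 0.105) without control replicate 6.

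Pdhb, the partner subunit of Pdha1, was at 579 ± 38.7 FPKM over controls (SD, n = 6) against 603 ± 23.6 FPKM over PCOS samples (SD, n = 5). Its difference of 0.06 was opposite in sign to that of Pdha1, and it became -0.003 with the length trend removed. Dlat, the acetyl-transferring core of the complex, was at 123 ± 7.61 FPKM over controls (SD, n = 6) against 116 ± 9.85 FPKM over PCOS samples (SD, n = 5), a difference of -0.08. Pdk1, a kinase induced by low oxygen, was at 39.6 ± 6.11 FPKM over controls (SD, n = 6) against 36.8 ± 3.86 FPKM over PCOS samples (SD, n = 5), a difference of -0.09.

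All 5 glycogen genes had a difference below 0, with a median of -0.14, and none passed the test. Gys1, the muscle glycogen synthase, was measured at 42.0, 39.9, 34.8, 48.1 and 41.4 FPKM in control replicates 1 to 5, 24.1 in control replicate 6 and 32.7, 32.05, 32.96, 34.1 and 32.8 in PCOS replicates 1 to 5. The 5 PCOS samples were close together, below each of the first 5 controls and above control replicate 6. The difference was -0.18 (SE 0.13, adjusted p = 0.777) and -0.31 (adjusted p = 0.093) without control replicate 6. Gbe1, the branching enzyme, was measured at 19.0, 23.3, 20.9, 21.7 and 22.8 FPKM in control replicates 1 to 5, 16.2 in control replicate 6 and 13.0, 15.4, 21.0, 21.2 and 19.9 in PCOS replicates 1 to 5. PCOS replicates 1 and 2 lay below all controls and the other 3 lay among them. The difference was -0.20 (SE 0.13, adjusted p = 0.761) and -0.26 (adjusted p = 0.262) without control replicate 6.

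Pygm, the muscle glycogen phosphorylase that is lost in McArdle disease, was measured at 525, 514, 487, 555 and 529 FPKM in control replicates 1 to 5, 393 in control replicate 6 and 448, 455, 487, 502 and 476 in PCOS replicates 1 to 5. The PCOS samples filled the gap between control replicate 6 and the other controls and reached past control replicate 3. The difference was -0.07 (SE 0.08, adjusted p = 0.834) and -0.14 (adjusted p = 0.167) without control replicate 6. Pygb, the brain form of phosphorylase, which the heart also makes, was at 280.2 ± 47.9 FPKM over controls (SD, n = 6) against 253 ± 31.6 FPKM over PCOS samples (SD, n = 5), a difference of -0.14 (SE 0.13, adjusted p = 0.811) and of -0.25 (adjusted p = 0.14) without control replicate 6. Ugp2, which makes the UDP-glucose that glycogen synthase uses, was at 115 ± 11.2 FPKM over controls (SD, n = 6) against 111 ± 10.2 FPKM over PCOS samples (SD, n = 5), a difference of -0.05. Without control replicate 6 the median of the 5 genes was -0.25. With the length trend removed all 5 stayed below 0, and so were all 5 genes of pyruvate dehydrogenase and its kinases. With the trend removed and control replicate 6 left out, Gys1 stood at -0.29 (adjusted p = 0.193).

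**Figure D2:**
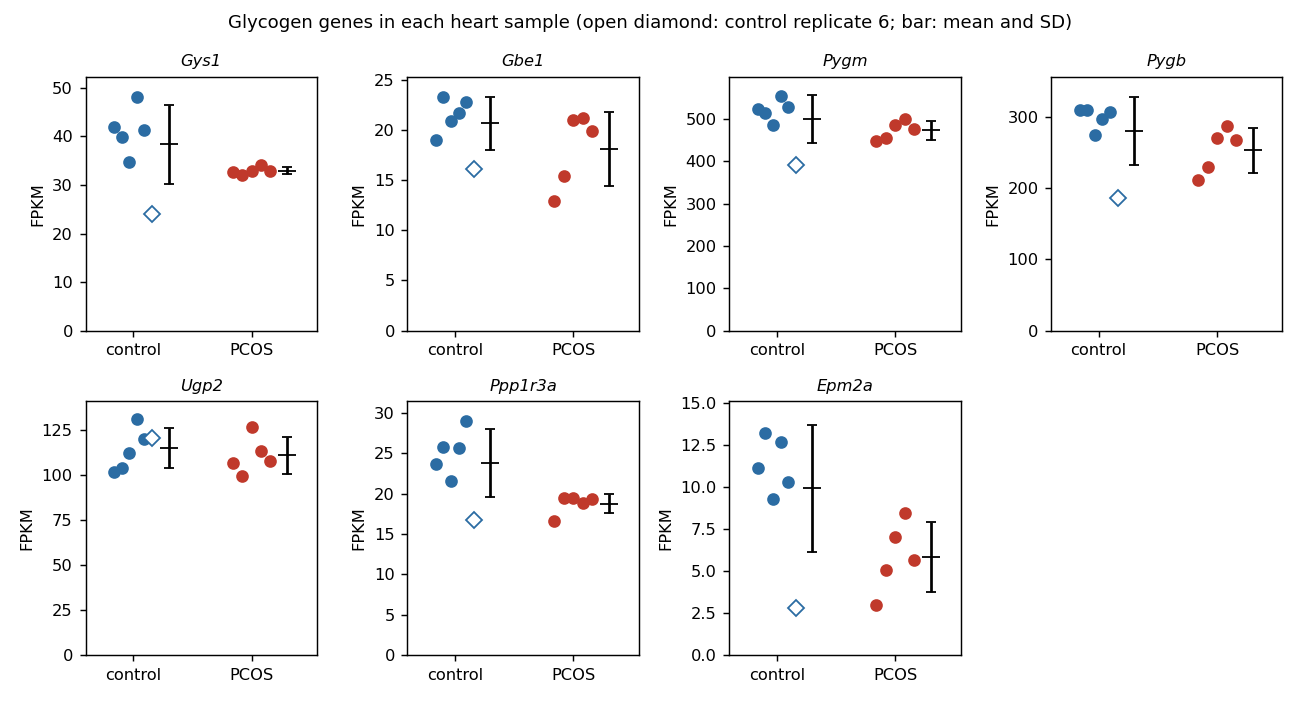
FPKM (vertical axes, from 0) of the 5 glycogen genes and of Ppp1r3a and Epm2a in each control and PCOS sample, with the mean and SD of each group as black bars. Control replicate 6 is the open diamond, and its Gys1 of 24.1 FPKM lies below the 5 PCOS samples while the other 5 controls lie above them.

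The promoter windows of 3 genes are shown for the genes that stood out in these samples: Pgam2 had the highest difference, Pgk1 the lowest of the triose phosphate genes, and Gys1 the smallest adjusted p without control replicate 6. Each window is 300 bases of RefSeq sequence (GRCm38.p6), from 250 bases before the transcription start to 50 after it, so that the start is base 251. The windows lie at chr11:5803747-5804046 on the minus strand (Pgam2), chrX:106186850-106187149 on the plus strand (Pgk1) and chr7:45434589-45434888 on the plus strand (Gys1), and each covers the 5′ flank and the start of the first exon. Capitals mark matches to the searched motifs on either strand: TATAAA, the GC box GGGCGG, the hypoxia-response cores ACGTG and GCGTG, and the binding motif of the muscle factor MEF2.
Pgam2: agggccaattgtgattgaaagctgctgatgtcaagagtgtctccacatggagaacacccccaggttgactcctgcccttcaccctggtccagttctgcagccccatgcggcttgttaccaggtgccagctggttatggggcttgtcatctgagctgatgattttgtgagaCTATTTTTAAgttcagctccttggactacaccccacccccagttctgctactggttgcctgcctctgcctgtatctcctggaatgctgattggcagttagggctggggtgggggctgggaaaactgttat
Pgk1: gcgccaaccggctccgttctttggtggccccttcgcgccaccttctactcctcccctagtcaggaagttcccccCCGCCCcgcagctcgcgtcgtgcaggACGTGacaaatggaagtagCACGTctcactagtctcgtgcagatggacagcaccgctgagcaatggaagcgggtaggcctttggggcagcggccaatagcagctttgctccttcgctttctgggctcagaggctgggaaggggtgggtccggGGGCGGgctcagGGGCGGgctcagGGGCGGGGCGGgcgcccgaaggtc
Gys1: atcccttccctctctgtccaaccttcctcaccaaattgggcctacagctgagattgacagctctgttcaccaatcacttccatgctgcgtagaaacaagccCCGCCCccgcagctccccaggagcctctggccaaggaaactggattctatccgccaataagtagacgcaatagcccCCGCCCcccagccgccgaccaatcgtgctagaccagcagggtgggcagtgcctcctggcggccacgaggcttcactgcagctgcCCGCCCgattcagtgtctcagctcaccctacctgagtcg

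Pgam2 held a MEF2 match at bases 171 to 180 and none of the other motifs. Pgk1 held 5 GC boxes, of which the pair at bases 277 to 282 and 282 to 287 share a base, and ACGTG at bases 101 to 105 and, on the other strand, at 120 to 124. Gys1 held 3 GC boxes, all on the other strand. Of the 30 genes with a row, 29 had a window, Slc2a4 being the exception, and some had several. Over their 41 windows GGGCGG was found in 48.8%, ACGTG in 46.3%, GCGTG in 56.1%, TATAAA in 2.44% and the MEF2 motif in 2.44%. In all 32851 mouse windows of that length the shares were 35.7%, 19.6%, 32.4%, 13.6% and 3.19%. Windows of 1 gene can overlap, and a match is a description of these letters only.

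In 7 families there was more than 1 measured form, and the share of 1 form in the FPKM of its family does not depend on the scaling of the library. The heart or muscle form was the larger one in 6 families in every sample. Shares that include Ldha or Pgam1 carry the uncertainty of those levels given above. Slc2a4 made up 95.2% of the transporter pair in both groups, Pfkm 87.3% and 87.4% of phosphofructokinase, Ldhb 80.1% and 80.3% of lactate dehydrogenase, and Pygm 64.3% and 65.3% of the phosphorylase pair (controls first). For these 4 the exact permutation p lay between 0.379 and 0.948. Hk2 held 65.6% ± 2.05 of the hexokinase pair in controls (SD, n = 6) and 64.0% ± 1.52 in PCOS (SD, n = 5). The difference of -1.62 percentage points had p = 0.173 by the exact two-sided permutation test over 462 splits, and adjusted p = 0.606 over the 7 families. Without control replicate 6 the difference was -2.26 points, with an exact p of 0.0476 and an adjusted p of 0.167.

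Pgam2 held 97.5% ± 0.473 of the mutase pair in controls (SD, n = 6) and 98.1% ± 0.307 in PCOS (SD, n = 5). By sample, the share was 97.20, 97.40, 98.28, 97.26 and 97.12% in control replicates 1 to 5, 97.97% in control replicate 6, and 98.59, 98.03, 98.17, 97.84 and 97.85% in PCOS replicates 1 to 5. Control replicates 3 and 6 lay in the PCOS range. The difference of 0.560 points had p = 0.0498 by the exact permutation test and adjusted p = 0.348 over the 7 families, so it did not pass. Without control replicate 6 the exact p was 0.0397 and the adjusted p 0.167. The transcripts of the pair differ in length, 1832 bases for Pgam1 against 906 for Pgam2, and the level of Pgam1 is uncertain. Pdk4 varied more than any other form. It was 22.6% ± 9.13 of the summed Pdk1, Pdk2 and Pdk4 in controls (SD, n = 6), with 29.2% in control replicate 2 and 37.8% in control replicate 5, and 19.1% ± 3.84 in PCOS (SD, n = 5). Pdk3, at 1.11, 1.98, 1.34, 1.07 and 1.31 FPKM in control replicates 1 to 5, 1.60 in control replicate 6 and 1.07, 1.41, 0.871, 1.19 and 1.35 in PCOS replicates 1 to 5, is not part of that sum. The smallest p that 6 against 5 samples can give is 0.00216.

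**Figure D3:**
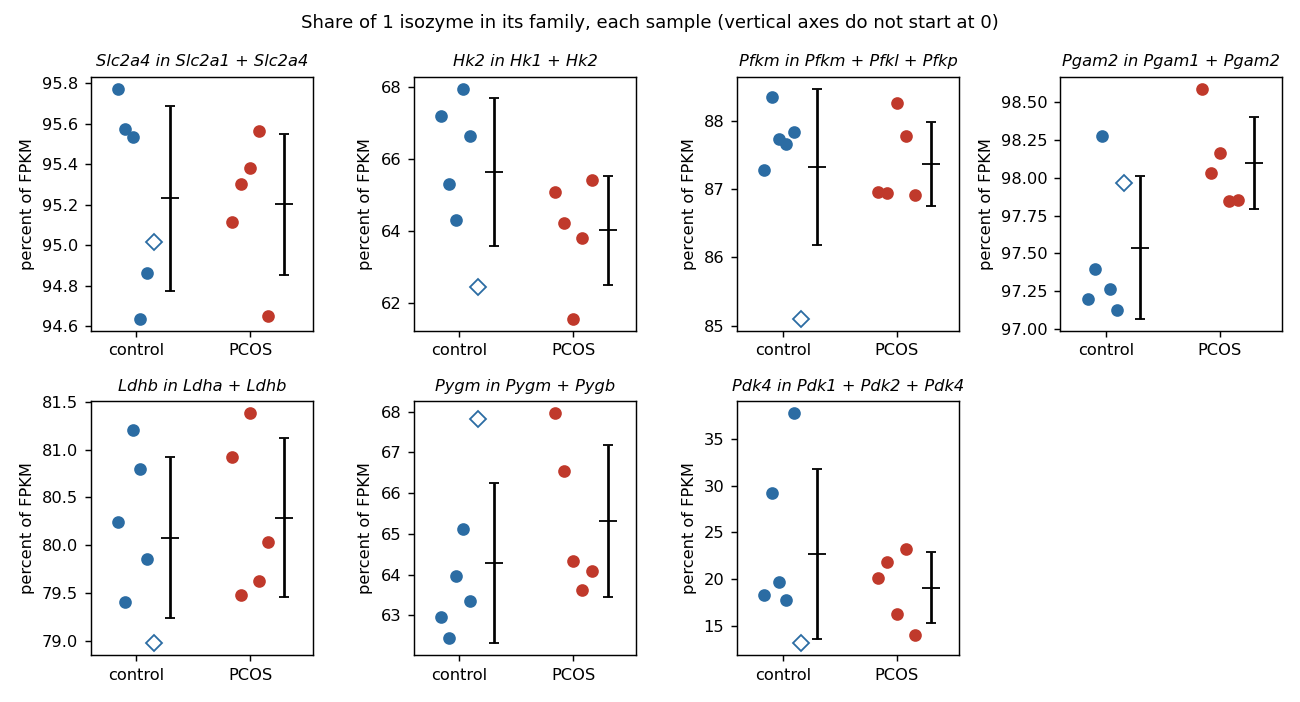
Share of 1 form in the summed FPKM of its family (vertical axes in percent, not starting at 0), in each control and PCOS sample, with the mean and SD of each group as black bars and control replicate 6 as an open diamond. The groups overlap in all 7 families, and Pdk4 reaches 37.8% in 1 control.

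The median difference ran downward from short to long transcripts across the whole table. Length here is the value that reads and FPKM imply. The median difference was 0.11 over 607 rows under 1000 bases, 0.06 from 1000 to 2000, 0.02 from 2000 to 3000, -0.0054 from 3000 to 4000 and -0.04 above 4000. The tested genes of the pathway ran the same way, with 0 of 1, 2 of 6, 5 of 9, 5 of 5 and 7 of 8 below 0 in these classes. Control replicate 6 was the most extreme library, as its short rows stood 0.373 above its long rows relative to the mean of all samples, against -0.329 to -0.0155 in the first 5 controls and -0.109 to 0.228 in PCOS. After the trend was subtracted from each library, Pgk1, Gbe1 and Gys1 stood at -0.22, -0.20 and -0.17. Whether length sets any single difference was not tested.

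**Figure D4:**
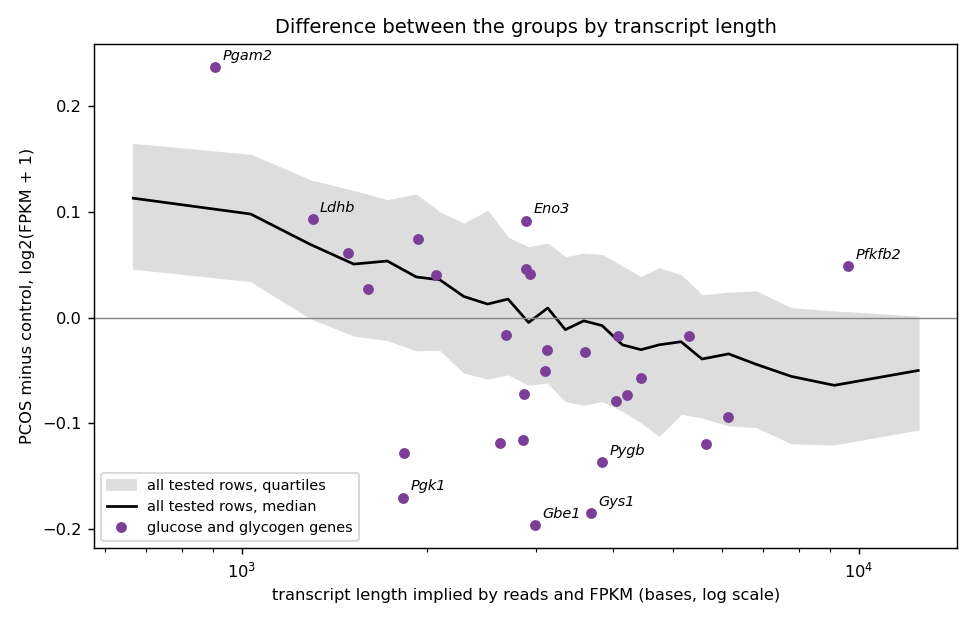
Difference between the groups (PCOS minus control, vertical axis, log2(FPKM + 1)) by transcript length in bases (horizontal axis, log scale). The black line and grey band are the median and quartiles of all tested rows in bins of length, the points are the pathway's tested genes, and Pgam2, at 906 bases, lies farthest above the line.

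A second list of 61 genes around the same pathway, drawn up with earlier results of these data known, had 55 with a row and 41 tested. None was called, 12 had a difference above 0 and 29 below 0, and the median was -0.08. At an unadjusted p under 0.05, 0 were higher and 1 lower, against 3.51% and 3.17% of all rows. Without control replicate 6, 0 were called, and 5 were higher and 9 lower at that level, against 9.62% and 9.75% of all rows, with 12 above 0, 29 below 0 and a median of -0.09. The gene lower with all 11 samples was Ppp1r3a, the subunit that brings protein phosphatase 1 to glycogen in striated muscle. It was measured at 23.7, 25.8, 21.6, 25.7 and 29.0 FPKM in control replicates 1 to 5, 16.8 in control replicate 6 and 16.7, 19.5, 19.4, 18.8 and 19.3 in PCOS replicates 1 to 5. The first 5 controls lay above all PCOS samples, and control replicate 6 lay at the level of PCOS replicate 1. The difference was -0.31 (SE 0.11, adjusted p = 0.738), and -0.40 (adjusted p = 0.059) without control replicate 6.

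Epm2a, which encodes laforin, the phosphatase that removes phosphate from glycogen, was measured at 11.1, 13.2, 9.28, 12.7 and 10.3 FPKM in control replicates 1 to 5, 2.81 in control replicate 6 and 2.95, 5.03, 7.04, 8.42 and 5.67 in PCOS replicates 1 to 5. The first 5 controls again lay above all PCOS samples, and control replicate 6 lay below them. The difference was -0.62 (SE 0.31, adjusted p = 0.738), and -0.90 (adjusted p = 0.084) without control replicate 6. Phka1, the muscle subunit of phosphorylase kinase, was measured at 4.88, 5.10, 4.88, 4.48 and 4.71 FPKM in control replicates 1 to 5, 3.17 in control replicate 6 and 3.50, 3.92, 3.76, 4.06 and 4.20 in PCOS replicates 1 to 5. Its samples took the same order, with control replicate 6 below the PCOS samples and the other controls above them. The difference was -0.17 (SE 0.09, adjusted p = 0.742), and -0.25 (adjusted p = 0.106) without control replicate 6. Phka1 and Ppp1r3a have long transcripts, of 11727 and 7121 bases, while Epm2a has 1079. With control replicate 6 left out and the length trend removed, Phka1 stood at -0.15 (adjusted p = 0.289) and Ppp1r3a at -0.33 (adjusted p = 0.166). Epm2a then stood at -1.04 (adjusted p = 0.090). The other phosphorylase kinase genes with a row went both ways. Phkg2 had a difference of 0.18 (adjusted p = 0.747), Phkg1 of 0.09 (adjusted p = 0.843) and Phkb of -0.09 (adjusted p = 0.809). Pgls, an enzyme of the pentose phosphate pathway, was measured at 50.0006, 47.4, 51.3, 45.4 and 38.7 FPKM in control replicates 1 to 5, 59.0 in control replicate 6 and 57.7, 57.0, 54.8, 49.9 and 54.3 in PCOS replicates 1 to 5. Controls 1 and 3 lay inside the PCOS range and control replicate 6 lay above it, and the difference was 0.18 (SE 0.09, adjusted p = 0.738). Tigar, which lowers fructose 2,6-bisphosphate, was measured at 24.8, 24.4, 24.6, 27.6 and 26.5 FPKM in control replicates 1 to 5, 23.3 in control replicate 6 and 22.7, 21.9, 25.6, 24.0 and 21.4 in PCOS replicates 1 to 5. PCOS replicates 1, 2 and 5 lay below all controls and PCOS replicates 3 and 4 among them, and the difference was -0.12 (SE 0.06, adjusted p = 0.742). Ppp1r3a, Epm2a and Phka1 were the 3 genes of this list below every remaining control without control replicate 6, against 1.85% of all rows, and 0 were above, against 1.7%. As a neighbouring pathway, 21 genes of fatty acid oxidation gave 0 calls (0 higher and 2 lower at an unadjusted p under 0.05, against 3.51% and 3.17% of all rows), 10 differences above 0 and 11 below 0, and a median of -0.0070. Without control replicate 6 there were 0 calls, and 2 genes were higher and 5 lower at an unadjusted p under 0.05, against 9.62% and 9.75% of all rows. Then 7 differences were above 0 and 14 below 0, the median was -0.05, and 2 genes were below every remaining control and 0 above, against 1.85% and 1.7% of all rows.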

How the data were processed

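Poly(A) RNA was sequenced in 11 heart samples, whose groups and replicate numbers come from the titles. Per the labels' protocols, the RNA kit was mirVana and the library kit TruSeq stranded mRNA. The submitters' processing notes list HISAT2 2.2.1, Trimmomatic 0.38, FastQC 0.11.9, HTSeq 0.13.5, DESeq2 1.18.1 and R 3.4.1, with the build mm10. The counting settings are not given in the sources used here. The authors deposited FPKM per gene model and sample, which were used as they stand. FPKM is relative to the library total, so abundant transcripts that differ shift all others.

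Symbols came from a RefSeq table of GRCm38.p6: 13171 of 21878 rows matched by versioned accession, 5903 by another version, and 2804 stayed without a symbol. In each row the deposited FPKM steps were divided by the worth of a single read. Whole reads, within 0.1, resulted for 100% of the 15939 rows that were above 0 in 3 libraries or more. On simulated data with the library totals given, 996 of 996 rows were recovered, apart from any factor common to all counts of a row. The estimate of the totals was not part of that check.

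Groups were compared with limma 3.58.1, run in R 4.3.3 with lmFit and a trended eBayes, on log2(FPKM + 1). A row needed a mean of at least 1 FPKM, and p-values were adjusted over all 10891 rows. Fold changes on this scale understate those of low genes. Shares of isozymes were tested by exact permutation. Of 10 planned shares 7 could be computed, since 3 need genes with no matched row, and p-values were adjusted over 7. Tables and figures were made with Python 3.11.15. Alternatives were a pseudocount of 0.1, no filter, quantile normalization, median-ratio scaling, a block for the replicate number, voom on the recovered reads, and leaving out each library, libraries 2 and 5, or 2, 5 and 6, which an earlier analysis of these data had left out. Removing the length trend (a lowess curve with a span of 0.3, per library), also without control replicate 6, was added after the data were seen.

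The genes, the added lists and the tests were chosen with earlier results of these data known. All listed genes are given values. Those shown sample by sample are any called, the 8 with the smallest p, and always Slc2a4, Slc2a1, Hk2, Pfkm, Gapdh, Ldha, Ldhb, Pdha1, Pygm and Gys1; of the second list any called and the 5 with the smallest p. Pfkfb2 by sample was added after its values were seen. Some genes of the second list are not reported here by name. Same-numbered samples of the groups were not paired: the correlations of their deviations were 0.133, -0.0321, -0.118, 0.254 and 0.101. No 2 libraries of a group agreed within sampling noise, as the smallest chi-square per row was 6.12.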

Additional observations from a re-analysis of the deposited data

Results flagged for a closer look

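In a group of 4 to 10 samples, a sample was singled out where its gap to the nearest other sample took up more of the group's range than Dixon's 95% critical value allows. Over 84 groups of gene levels and shares this happened 9 times, where chance gives 1 in 20 groups, or about 4.2. Control replicate 6 accounted for 7 of the 9. It was the lowest control for Slc2a4 at 145 FPKM (178 to 197 in the other controls), for Pfkm at 272 FPKM (352 to 386), for Pkm at 466 FPKM (517 to 528), for Pygb at 186 FPKM (274 to 309) and for Phka1 at 3.17 FPKM (4.48 to 5.10). Its share of Pfkm in phosphofructokinase was the lowest at 85.1% (87.3 to 88.4). It was the highest control for Aldoc at 1.002 FPKM (0 to 0.301).

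Outside that library, Gpi1 in PCOS replicate 3 was the highest of its group at 279 FPKM (258 to 261 in the others), and Ppp1r3a in PCOS replicate 1 was the lowest of its group at 16.7 FPKM (18.8 to 19.5).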

How the results depend on the processing

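No gene of the pathway, the second list or fatty acid oxidation was called under any of the 21 alternatives in which each was computed. Of the recomputed values, 916 were counted as unchanged, 8 as moved and 4 as reversed. A change of sign in a gene whose difference was below its own standard error was counted as unchanged. The sign was the same in all 21 settings for 18 of the 29 genes. Of the other 11, 9 had a difference below its own standard error. The signs of these 9 enter the counts above and below 0 but are not read as directions. Of the remaining pair, Ldhb became -0.0393 under quantile normalization and -0.0163 with the length trend removed and control replicate 6 left out, and Pdhb became -0.0030 with the length trend removed and -0.0152 when control replicate 6 was left out as well. The cause was not tested. Over all rows, the 15 calls became 25 with the replicate number as a block, 12 of them shared. The numbers do not pair the samples, and in the block fit control replicate 6 has no PCOS partner and adds nothing to the differences, so 2 choices change together; the fit without that library and without a block gave 32. The calls ranged from 10 to 32 when 1 library was left out, with 32 without control replicate 6, of which 15 were shared. Rows whose groups do not overlap numbered 76, and from 88 to 387 when 1 library was left out, where smaller groups overlap less by construction. Depth limits the low genes most, with 262 reads of Slc2a1 in 1 library at the least among the 29 genes. Of the second list, Epm2a held only 39 to 198 reads per library and Pdk3 25 to 55.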

Other observations

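Genes named here were chosen after their values were seen. Pdk4, the kinase induced by fasting and fatty acids, was measured at 60.9, 115, 61.8, 64.3 and 160.5 FPKM in control replicates 1 to 5, 30.2 in control replicate 6 and 60.0, 64.4, 47.6, 75.9 and 37.6 in PCOS replicates 1 to 5. Control replicates 2 and 5 were the highest of the 11 samples. Txnip, which glucose induces and which restrains glucose uptake, was measured at 145, 363, 270.0, 310.0 and 548 FPKM in control replicates 1 to 5, 218 in control replicate 6 and 261, 236, 281, 295 and 196 in PCOS replicates 1 to 5. The same 2 controls were again the highest.

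Liver forms of the pathway's enzymes were found in control replicate 6 beside its hepatocyte markers. Fbp1, the liver fructose bisphosphatase, was at 11.6 FPKM there and at most 0.147 elsewhere, and Gys2, the liver glycogen synthase, was at 1.86 FPKM there and at most 0.0249 elsewhere.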
